A study of Homo sapiens with 19 samples.

Results

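The comparison of EED-/- H1 with wild-type (WT) H1 human embryonic stem cells (hESCs) rested on 4 of the 19 RNA-seq samples of the series, 2 per group, chosen by their genotype labels. Of the 33382 genes listed, 16914 reached 1 TPM in 2 or more of the 4 samples and were tested. TPM is a gene's share of all transcripts, corrected for transcript length and scaled to the same sum in every sample. H1 is a widely used hESC line, and every sample here was kept in mTeSR1 medium on Matrigel-coated plates without feeder cells. EED-/- H1 cells were made with CRISPR/Cas9 and a donor carrying a drug resistance cassette that replaces the part of EED coding for an essential domain. Their samples carry the designations DK1_DK10 and DK2, which the labels do not explain, and are called the first and the second EED-/- H1 sample. WT H1 is labelled as the control. The labels give no time after targeting and no treatment or transgene for either group. Knockout lines were drug-selected and more than one homozygous clone was characterised per gene, but the labels do not say which clone each sample holds or whether samples of a group came from separate cultures, so the p-values measure only the spread between samples. That spread was estimated with 8 further samples, 2 each of EZH1-/-, EZH2-/-, EZH2-/-/EZH1-/- and SUZ12-/- H1, which enter no difference given here.

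EED is the subunit of Polycomb repressive complex 2 (PRC2) that binds trimethylated lysine 27 of histone H3 (H3K27me3) and activates the methyltransferase EZH2 or EZH1, and SUZ12 holds the core together. The complex spreads this mark over silent genes, many of which code for transcription factors and signals of development. In hESCs the mark covers promoters of lineage regulators that the cells do not transcribe, and Polycomb repressive complex 1 (PRC1) binds it through its CBX subunits.

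The targeted gene was listed at a similar level in both groups. EED (chr11:86201212-86278813 on GRCh38, plus strand) had 17.3 and 21.96 TPM in WT H1 and 14.25 and 22.4 TPM in EED-/- H1, and the ranges of the groups overlapped. The difference in log2(TPM + 1) was -0.12 ± 0.25 (SE) and did not pass the test (limma, adjusted p = 0.704). A TPM value sums the reads of a whole gene, transcripts that lack the replaced part included, so this level does not check the knockout. The study reported genomic PCR and qRT-PCR on its knockout lines, and a complete loss of H3K27me3 in EED-/- H1 on western blots. The groups are named by their labels throughout. The other core subunits were not called either. The methyltransferase EZH2 had 54.6 and 58.9 TPM in WT H1 and 18.7 and 33.1 TPM in EED-/- H1, lower in both EED-/- H1 samples, with a difference of -1.16 ± 0.37 on the log2 scale (limma, adjusted p = 0.0196). SUZ12 had 25.2 and 27.9 TPM in WT H1 and 25.6 and 21.2 TPM in EED-/- H1, and its groups overlapped.

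Among the accessory subunits, JARID2, which helps to bring PRC2 to its targets, fell from 119 and 106 TPM to 21.9 and 28.8 TPM, a difference of -2.12 ± 0.31 on the log2 scale (limma, adjusted p = 0.00018). C17orf96, which codes for the accessory subunit EPOP, rose from 1.44 and 1.62 to 8.35 and 9.67 TPM. The other 5 accessory subunits tested were not called, and MTF2, PHF19 and AEBP2 were among them. Of 21 genes of PRC1 subunits tested, 6 rose (28.6%, beside 18.4% of all genes tested), 3 fell (14.3%, beside 6.92%) and 12 were not called. BMI1, a PCGF subunit that represses the CDKN2A locus, rose from 2.12 and 2.99 TPM to 62.2 and 61.2 TPM, while its paralog PCGF2 had 61.2 and 54.9 TPM in WT H1 and 44.2 and 30.9 TPM in EED-/- H1 and was not called. PHC1, a Polyhomeotic subunit, fell from 698 and 596 TPM to 36.4 and 29.1 TPM, and its paralog PHC2 rose from 6.93 and 5.07 TPM to 98.0 and 91.0 TPM. CBX8, which reads H3K27me3, also rose, as did YAF2, whereas SCML2 and the CpG island binder KDM2B fell.

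A gene was called where the Benjamini-Hochberg adjusted p was at most 0.01 and the estimated fold change at least 3. By that rule 3115 genes rose in EED-/- H1, which is 18.4% of those tested, and 1171 fell, which is 6.92%. List counts are read against these shares. A gene under 1 TPM in both WT H1 samples was tested only if both EED-/- H1 samples reached 1 TPM. Lists rich in such genes therefore tend to a higher share of rises. The median difference over all genes tested was 0.39 on the log2 scale, and scaling the samples by median ratios lowered it to 0.15 and moved the calls to 2546 up and 1504 down, so that rises made up 72.7% of calls as deposited and 62.9% after scaling. Genes that rose were mostly low in WT H1: their median level was 2.21 TPM there and 26.59 TPM in EED-/- H1, and 1166 of the 3115 (37.4%) averaged under 1 TPM in WT H1. Together they took 3.2 and 3.1% of all TPM in the WT H1 samples and 29.6 and 26.4% in the EED-/- H1 samples. Under 0.5 TPM in both WT H1 samples and at least 10 TPM in both EED-/- H1 samples lay 244 genes, and 41 genes showed the reverse. Coding genes rose more often than long noncoding RNAs, at 2797 of 14562 (19.2%) against 284 of 2082 (13.6%), a difference that was not tested.

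The samples of each group resembled each other. Across genes, Spearman's rho was 0.988 between the WT H1 samples, 0.964 between the EED-/- H1 samples and 0.698 to 0.738 across groups, where genes are not independent replicates. TPM holds no read counts, so the depth is unknown and no interval that needs it is given. Genes with a TPM of at least 1 numbered 14861 and 14755 in WT H1 and 16880 and 16454 in EED-/- H1.

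**Figure D1:**
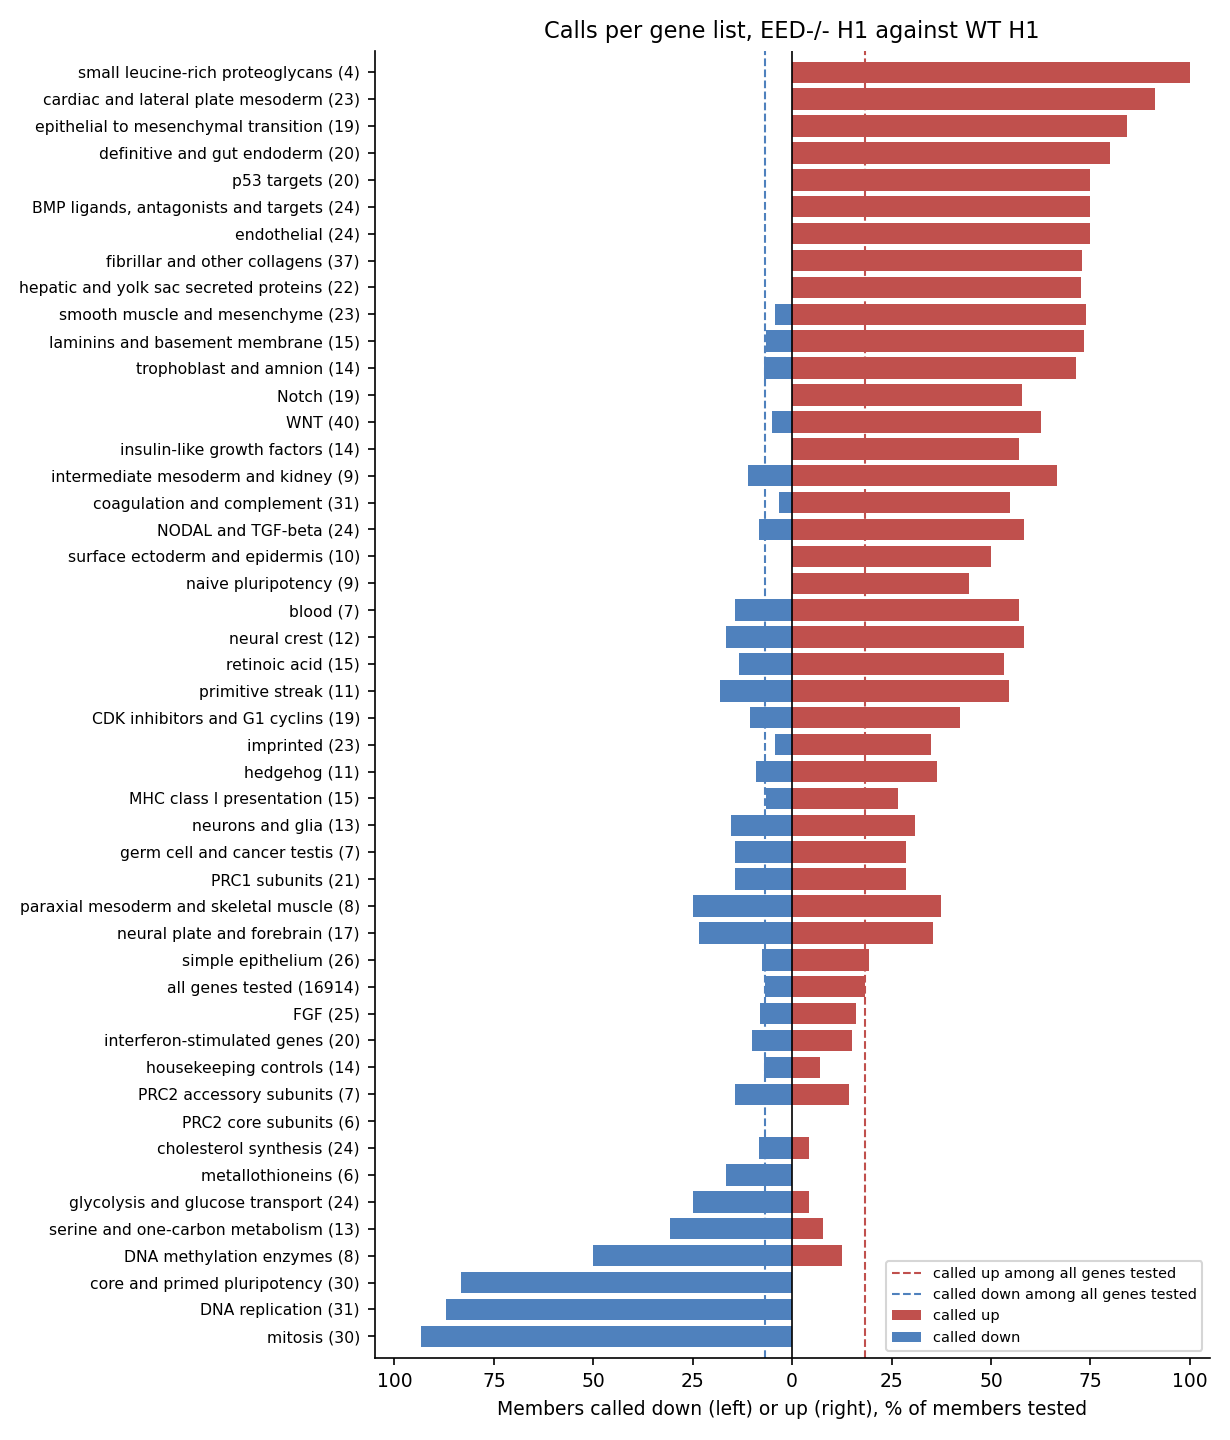
Percentage of tested members called higher (to the right) or lower (to the left) in EED-/- H1 than in WT H1, for the gene lists, with the number of members tested in brackets. Dashed lines give the shares over all genes tested, 18.4% up and 6.92% down. Mitosis, DNA replication and pluripotency have the longest bars to the left, and proteoglycans, cardiac mesoderm and epithelial to mesenchymal transition the longest to the right.

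The pluripotency network fell nearly as a whole. Of 30 regulators and markers of primed pluripotency, 25 fell and 0 rose, with a median difference of -3.27 on the log2 scale. The WT H1 samples carried the defining hESC markers POU5F1, NANOG, SOX2, LIN28A and TDGF1, so their label held, while in both EED-/- H1 samples each of the 5 was called lower. These are bulk samples, in which fewer cells of a type and less RNA per cell cannot be told apart. POU5F1 (chr6:31164337-31180731, minus strand), which codes for OCT4, had 2531 and 2428 TPM in WT H1 and 5.27 and 3.62 TPM in EED-/- H1, the largest fall of all genes called, -8.85 ± 0.27 on the log2 scale (limma, adjusted p = 6.35e-09). Both EED-/- H1 samples lay far below both WT H1 samples.

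Other genes of undifferentiated hESCs fell with it. The zinc finger factor ZSCAN10 had 219.6 and 199.7 TPM in WT H1 and 0.25 and 0.07 TPM in EED-/- H1, a difference of -7.51 ± 0.27 on the log2 scale. The RNA-binding L1TD1 fell from 557 and 634 TPM to 7.47 and 10.2 TPM, the ubiquitin protease USP44 from 117 and 109 TPM to 0.67 and 0.56 TPM, and POLR3G, a polymerase III subunit of undifferentiated cells, from 284 and 233 TPM to 3.26 and 1.75 TPM. In no case did the groups come near each other. TDGF1, the NODAL coreceptor, fell by 5.46 and the WNT antagonist SFRP2 fell by 5.41 on the log2 scale. SOX2 kept more of its level, at 22.6 and 16.1 TPM against 165 and 219 TPM in WT H1. Of the 5 members that did not pass, SALL4 had 57.8 and 65.8 TPM in WT H1 and 43.5 and 43.7 TPM in EED-/- H1 and GDF3 had 15.1 and 17.4 TPM in WT H1 and 13.2 and 21.96 TPM in EED-/- H1, and the others were OTX2, CDH1 and EPCAM.

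Several of the deepest falls were noncoding RNAs or genes named for HERVH, an endogenous retrovirus whose repeats are transcribed in hESCs. HHLA1, named for the HERVH repeat it is joined to, fell from 951 and 1071 TPM to 11.9 and 5.30 TPM. ERVH-1 fell from 238 and 233 TPM to 2.47 and 1.06 TPM, and LINC00678 from 775 and 759 TPM to 5.94 and 8.90 TPM. RP11-132A1.3 had 116 and 117 TPM in WT H1 and was listed at 0 in both EED-/- H1 samples. FOXD3-AS1 fell by 6.32 and FOXD3, the forkhead factor beside it, fell by 3.88 on the log2 scale, and the kit does not keep strand, so reads where the pair overlaps cannot be told apart. Naive pluripotency genes moved in part. Of 9 tested, 4 rose, namely KLF2, KLF4, KLF5 and TBX3, which other lineages also use, whereas KLF17 was listed at 0 in all 4 samples and DPPA5 in both EED-/- H1 samples.

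**Figure D2:**
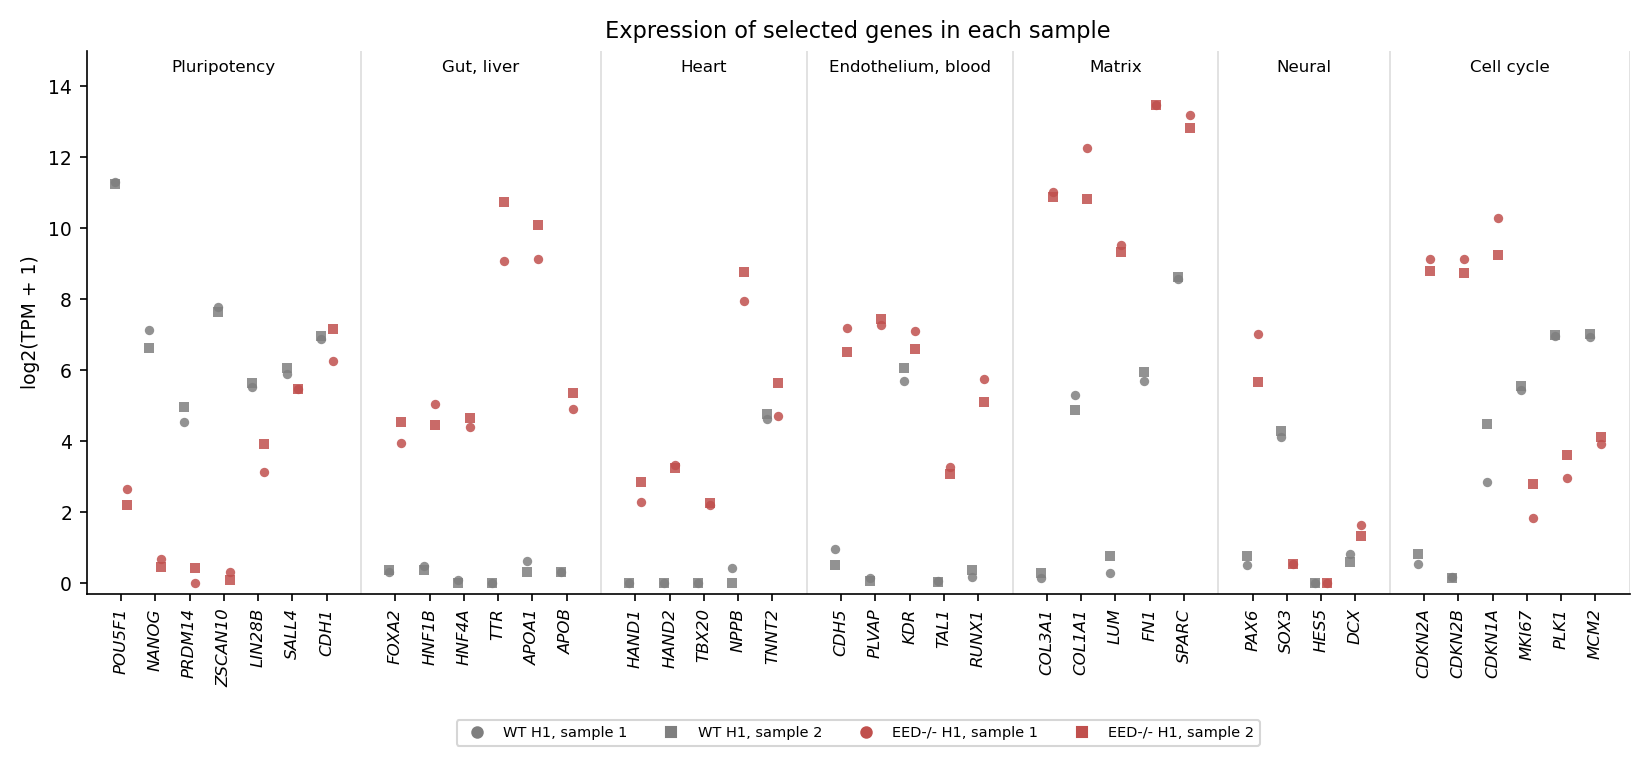
Level of selected genes in each of the 2 WT H1 and 2 EED-/- H1 samples, as log2(TPM + 1), with 1 point per sample. POU5F1, with 2531 and 2428 TPM in WT H1 and 5.27 and 3.62 TPM in EED-/- H1, and COL3A1, with 0.11 and 0.22 TPM and 2070.1 and 1873 TPM, show the largest fall and the largest rise of all genes called. The groups overlap for CDH1 and TNNT2, and HES5 is at 0 throughout.

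The HOX genes, the classical PRC2 targets that pattern the body axis, were silent in WT H1 and transcribed in EED-/- H1 almost as a whole family. Of 39 listed, 36 were tested and 35 rose. With WT H1 silent, a HOX gene was tested only if both EED-/- H1 samples reached 1 TPM. The share that rose among those tested therefore follows largely from the filter. No HOX gene exceeded 0.19 TPM, the level of HOXB2, in a WT H1 sample, and the 39 listed members summed to 0.10 and 0.40 TPM in WT H1 and 678 and 496 TPM in EED-/- H1. HOXB9, listed at 0 in both WT H1 samples, had 62.1 and 35.3 TPM in EED-/- H1, HOXA10 had 59.6 and 43.2 TPM and HOXD11 47.7 and 40.0 TPM. All 4 clusters took part, from HOXD1 (8.02 and 4.99 TPM), at the 3′ end that is expressed in anterior tissue, to the posterior HOXA13 (6.43 and 11.6 TPM), HOXC13 (13.3 and 8.76 TPM) and HOXD13 (11.8 and 21.3 TPM). HOXA6 had 2.88 and 1.51 TPM in EED-/- H1 and was the only tested member not called (limma, adjusted p = 0.0111). Of their cofactors, MEIS1 and MEIS2 rose to 13.7 and 15.3 TPM and 29.8 and 30.5 TPM from under 1 TPM.

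**Figure D3:**
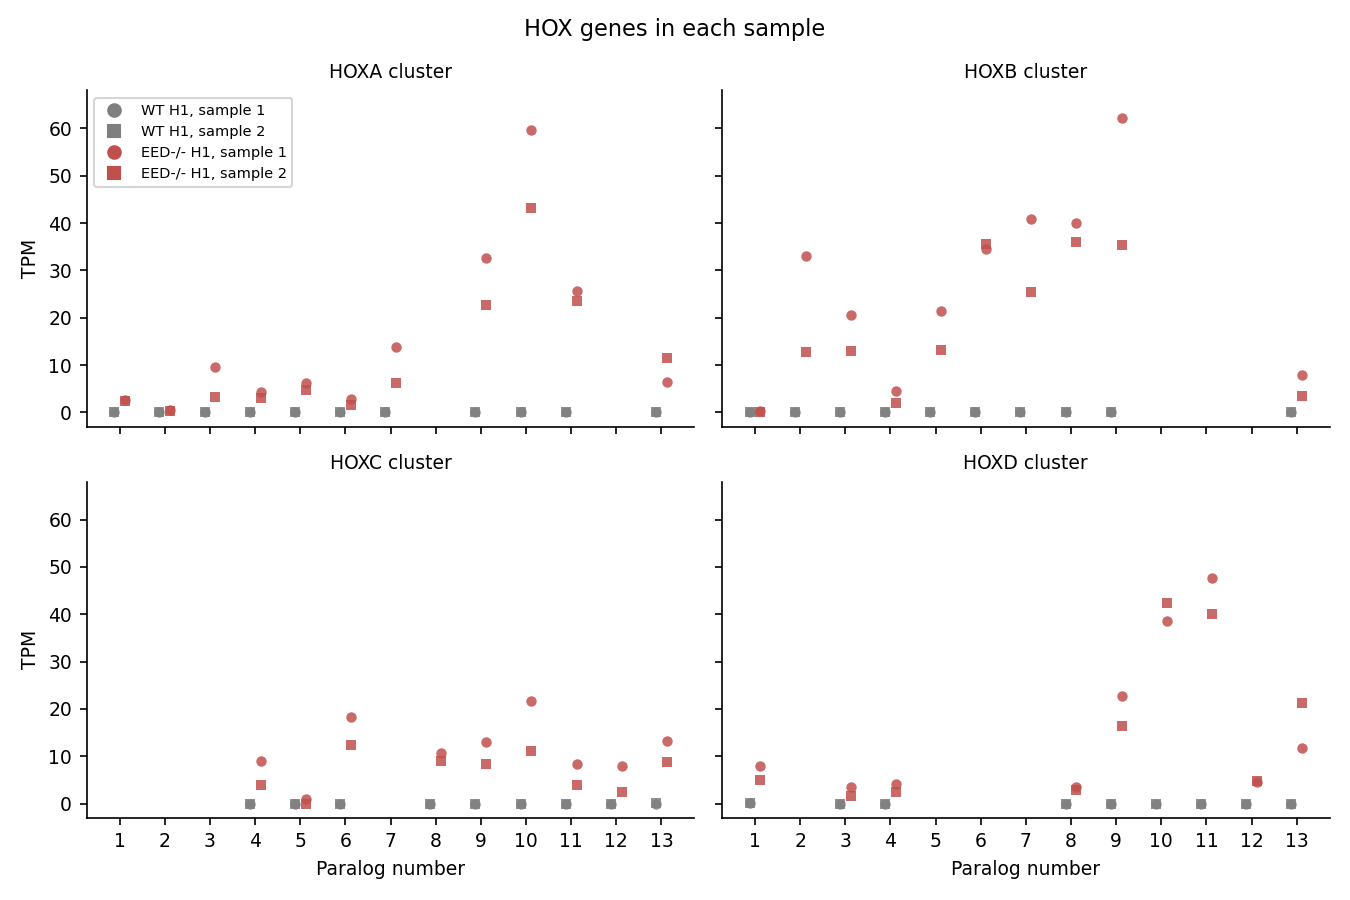
TPM of each listed HOX gene by cluster (panels) and paralog number (horizontal axis), with 1 point for each of the 2 WT H1 samples (grey) and the 2 EED-/- H1 samples (red). WT H1 stays at or under 0.19 TPM, the level of HOXB2, throughout, and EED-/- H1 reaches 62.1 and 35.3 TPM for HOXB9.

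Most other families of developmental transcription factors had a share of rises above 18.4%. Members silent in WT H1 were tested only where EED-/- H1 transcribed them, which raises these shares. In the T-box family 9 of 13 tested rose, in the GATA family 4 of 5, in the NKX family 5 of 7, among LIM homeobox factors 6 of 9 and among forkhead factors 16 of 32. Of 16 SOX factors 6 rose and 4 fell. Of 7 genes of the sine oculis homeobox and EYA families 1 rose (14.3%), near the 18.4% of all genes tested. The large family of zinc finger genes named ZNF, mostly KRAB repressors, differed: 32 of 468 rose and 20 fell, below the share of all genes in both directions. Members of 1 family also moved in opposite directions. ZIC1 and ZIC4 rose to 23.6 and 26.5 TPM and 7.35 and 4.11 TPM, whereas the hESC members fell, ZIC2 from 143 and 128 TPM to 7.49 and 14.8 TPM and ZIC5 from 32.3 and 32.8 TPM to 0.53 and 1.86 TPM. FOXQ1 and FOXF2 rose, while FOXD3, FOXH1 and the mitotic factor FOXM1 fell.

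Endoderm was strongly represented among the rises. Of 20 regulators of definitive and gut endoderm tested, 16 rose and 0 fell, with a median of 3.55 on the log2 scale. HNF4A, a liver and gut nuclear receptor, had 0.07 and 0 TPM in WT H1 and 19.9 and 24.3 TPM in EED-/- H1. HHEX, of anterior endoderm and liver, rose from 0.29 and 0.62 TPM to 37.9 and 29.2 TPM, and the chemokine receptor CXCR4 from 1.05 and 1.67 TPM to 193 and 157 TPM. TFF1, a secreted gut peptide, was listed at 0 in WT H1 and had 47.7 and 51.2 TPM in EED-/- H1. PDX1, of pancreas and duodenum, reached only 1.22 and 0.32 TPM and was not tested, and FOXA3 was not called at -1.20 on the log2 scale.

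Proteins secreted by yolk sac endoderm and fetal liver were among the largest rises in the transcriptome. The thyroxine carrier TTR was listed at 0 in both WT H1 samples and had 535 and 1694 TPM in EED-/- H1. APOA1, the main protein of high-density lipoprotein, had 0.55 and 0.25 TPM in WT H1 and 561 and 1081 TPM in EED-/- H1, a difference of 9.13 ± 0.28 on the log2 scale (limma, adjusted p = 6.35e-09). In all 16 of 22 such genes tested rose and 0 fell, with APOA2, APOB, SERPINA1 and VTN among them. The second EED-/- H1 sample held more of nearly all of them, 18 of 22. ALB was low, at 0.36 and 0.08 TPM in WT H1 and 2.06 and 4.38 TPM in EED-/- H1. It was no longer called when the second EED-/- H1 sample was left out (1.34 on the log2 scale) or the second WT H1 sample (1.58), and it missed the threshold after median-ratio scaling (1.57). The APOE gene, already high in hESCs, had 859 and 1033 TPM in WT H1 and 1186 and 1676 TPM in EED-/- H1 and was not called.

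Lateral plate and cardiac mesoderm had the largest called share among the germ layer lists, 21 of 23 tested, with a median of 3.45 on the log2 scale. NPPB, a natriuretic peptide, had 0.33 and 0 TPM in WT H1 and 247 and 438 TPM in EED-/- H1. The atrial light chain MYL7 rose from 6.30 and 3.32 TPM to 210.1 and 375 TPM and the heart factor NKX2-5 from 0.13 and 0.17 TPM to 40.2 and 26.1 TPM. Of other sarcomere genes, the cardiac actin ACTC1 rose from 30.6 and 37.6 TPM to 226 and 462 TPM and the light chain MYL4 from 0 and 0.14 TPM to 15.9 and 22.1 TPM. ACTC1 was no longer called without the second EED-/- H1 sample (2.70 on the log2 scale) or the first WT H1 sample (3.07). The troponin TNNT2 had 23.5 and 26.4 TPM in WT H1 and 25.3 and 49.2 TPM in EED-/- H1 and was not called. The myosin MYH6 stayed at or under 0.26 TPM and NPPA was listed at 0 in all 4 samples. ANKRD1, a stress-responsive protein of heart and mesenchyme, rose by 9.23 ± 0.41 on the log2 scale, to 572 and 706 TPM. Of 16 paraxial mesoderm and skeletal muscle genes, 8 were high enough to test, of which 3 rose and 2 fell. FOXC2, a forkhead factor of mesoderm, rose from 0.04 and 0 TPM to 15.2 and 13.1 TPM, while MYOD1 and MSGN1 were listed at 0 in all 4 samples. For intermediate mesoderm, 6 of 9 tested rose, such as LHX1 (0.22 and 0.35 to 28.6 and 26.5 TPM) and the kidney growth factor GDNF (0.06 and 0.76 to 24.8 and 15.8 TPM).

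Endothelial genes rose, and the defining markers of blood cells were at or near 0. Of 24 endothelial genes tested, 18 rose and 0 fell, with a median of 3.75 on the log2 scale. CDH5, the endothelial cadherin, had 0.95 and 0.43 TPM in WT H1 and 146 and 90.1 TPM in EED-/- H1. PLVAP, of fenestrated capillaries, rose from 0.10 and 0.05 TPM to 154 and 172 TPM, CD34 from 0.53 and 0.50 TPM to 156 and 74.5 TPM and the adhesion protein ESAM from 0 and 0.19 TPM to 96.4 and 95.6 TPM. Of the defining endothelial markers, KDR and TEK were already transcribed in WT H1, at 50.9 and 66.1 TPM and 18.0 and 22.1 TPM, and were not called. The transcription factors RUNX1, TAL1, GATA2 and LMO2, which endothelium and blood progenitors share, rose, RUNX1 from 0.12 and 0.29 TPM to 52.9 and 33.1 TPM. The defining blood markers were at or near 0: PTPRC, which codes for CD45, had 0.12 and 0.21 TPM in EED-/- H1, GATA1 0 and 0.11 TPM and HBZ 0 and 0.22 TPM, and HBE1 was listed at 0 in all 4 samples. Of 22 blood genes 7 were high enough to test, of which 4 rose and 1 fell.

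Primitive streak genes, which mark the entry into mesoderm and endoderm, rose in part, at 6 of 11 tested, with 2 falls. CER1, a secreted NODAL and BMP antagonist of anterior endoderm, rose from 3.86 and 1.44 TPM to 463 and 203 TPM and EOMES from 0.05 and 0.13 TPM to 9.69 and 18.5 TPM. FOXH1, the NODAL partner of hESCs, fell from 71.2 and 74.4 TPM to 3.15 and 1.12 TPM.

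Extraembryonic ectoderm was represented by some genes and not by others. GATA3, TFAP2A, KRT7 and WNT6 rose, KRT7 from 13.6 and 12.98 TPM to 256 and 383 TPM, and in all 10 of 14 tested rose, most of which amnion, epithelium or mesoderm also transcribe. Of the defining trophoblast markers, CDX2 passed the thresholds for a call, and the others were low or absent. GCM1 was listed at 0 in both EED-/- H1 samples, the hormone genes CGA and CGB reached at most 1.9 and 0.85 TPM, and ERVW-1 had 6.67 and 8.86 TPM in WT H1 and 2.95 and 2.45 TPM in EED-/- H1. ISL1, shared by amnion and heart progenitors, rose from 0.04 and 0.24 TPM to 18.8 and 49.2 TPM.

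Ectoderm lists held rises and falls. Of 17 neural plate and forebrain genes tested, 6 rose and 4 fell. PAX6, of neural tube and eye, rose from 0.41 and 0.70 TPM to 129 and 50.03 TPM, but SOX1 stayed at or under 0.12 TPM in all 4 samples. SOX3 fell by 3.66 and HESX1 fell by 4.23 on the log2 scale, and hESCs share both with the neural plate. The neuronal bHLH factor NEUROG2 was listed at 0 in all 4 samples. Of neuronal genes, STMN2 rose from 4.13 and 5.39 TPM to 169 and 635 TPM and the GABA synthase GAD1 from 0.15 and 0.34 TPM to 34.3 and 33.6 TPM, while TUBB3 had 269 and 340.3 TPM in WT H1 and 325 and 352 TPM in EED-/- H1 and was not called. In the neural crest list 7 of 12 tested rose, MSX1, MSX2, SNAI2 and SOX9 among them, and 2 fell, namely FOXD3 and the receptor ERBB3, of which ERBB3 was not called without the first EED-/- H1 sample (-1.47 on the log2 scale). SOX10, the defining factor, had 2.01 and 2.22 TPM in WT H1 and 0.19 and 0.40 TPM in EED-/- H1 and was not called. Of 10 surface ectoderm and epidermal genes tested, 5 rose and 0 fell. Of 55 keratins listed, 26 were at 0 in all 4 samples, and 9 of the 10 tested rose. Keratins silent in WT H1 were tested only where both EED-/- H1 samples reached 1 TPM, which raises this share. The keratins that rose include KRT8 and KRT18 of simple epithelium. The keratins of basal epidermis were low and not tested, KRT5 at 0 and 1.94 TPM and KRT14 at 0.20 and 0.07 TPM, whereas KRT17 rose from 0.67 and 0.53 TPM to 104.8 and 111 TPM.

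**Figure D4:**
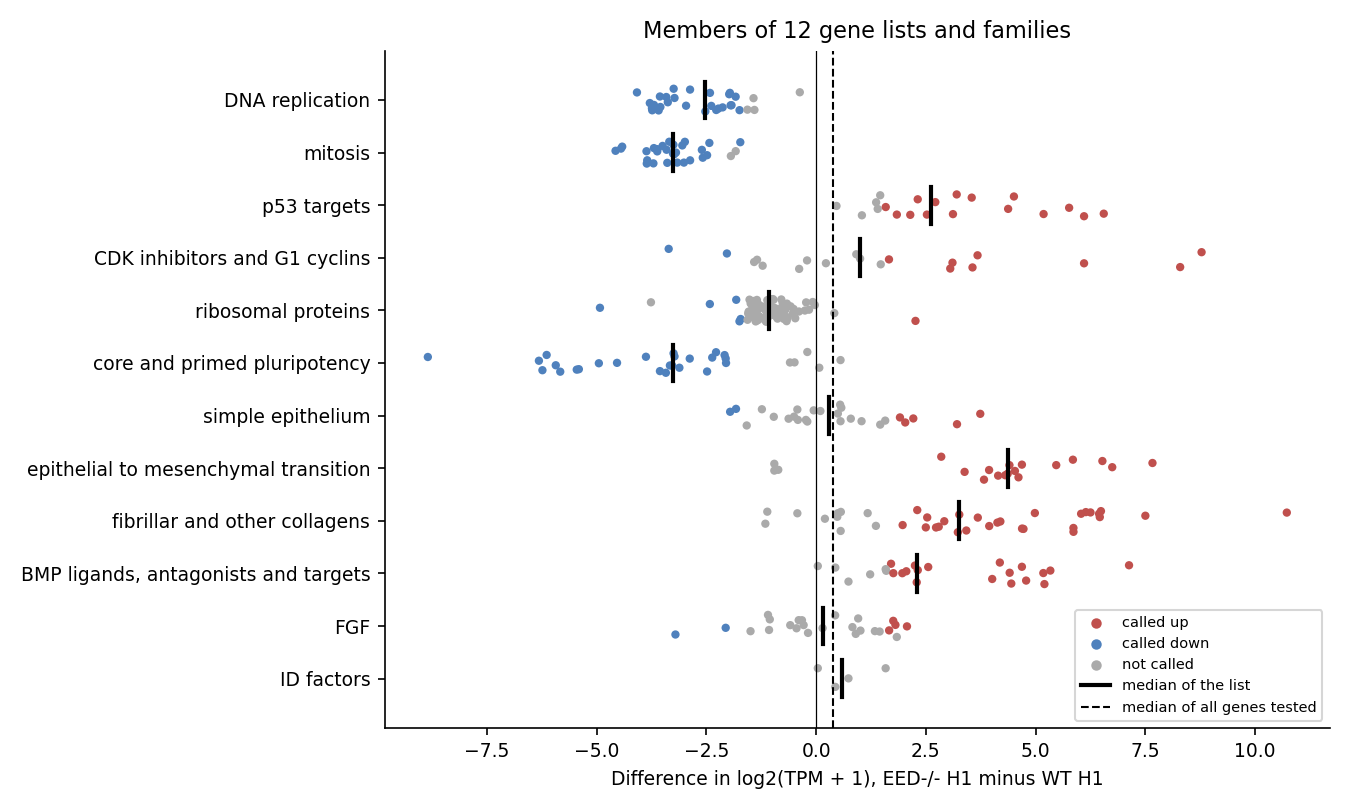
Difference in log2(TPM + 1) between EED-/- H1 and WT H1 for each tested member of selected lists, with 1 point per gene coloured by its call, the list median as a bar and the median of all genes tested as a dashed line. Medians run from -3.26 for mitosis and -3.27 for pluripotency to 4.37 for epithelial to mesenchymal transition, beside 0.39 over all genes tested.

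The largest gains in transcript share went to a mesenchymal and matrix program. In the list of epithelial to mesenchymal transition, 16 of 19 tested rose and 0 fell, with a median of 4.37 on the log2 scale. FN1, which codes for fibronectin, had 50.5 and 60.4 TPM in WT H1 and 11338 and 11452 TPM in EED-/- H1, more TPM gained than by any other gene called. Vimentin (VIM), the mesenchymal filament, rose from 231 and 352 TPM to 8087 and 5399.8 TPM and N-cadherin (CDH2) from 21.4 and 17.4 TPM to 556 and 439 TPM. The repressors ZEB1, ZEB2, SNAI2 and TWIST1 rose from under 1 TPM, ZEB2 to 24.8 and 21.2 TPM, whereas SNAI1 had 14.1 and 7.71 TPM in WT H1 and 5.46 and 4.43 TPM in EED-/- H1 and was not called.

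Epithelial genes were called at about the background shares. Of 26 genes of simple epithelium, 5 rose, 2 fell and 19 were not called, shares near those of all genes, and the median was 0.30 on the log2 scale. E-cadherin (CDH1) had 116 and 122.6 TPM in WT H1 and 75.8 and 142 TPM in EED-/- H1 and EPCAM 207 and 279 TPM in WT H1 and 223 and 564 TPM in EED-/- H1, and for both the groups overlapped. KRT8, a simple epithelial keratin, rose from 474 and 376 TPM to 2703 and 5680.2 TPM and its partner KRT18 from 641 and 487 TPM to 1804 and 3733 TPM. The desmosome protein DSP rose from 24.4 and 18.7 TPM to 295 and 300.2 TPM.

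Collagens accounted for much of the matrix. Of 37 tested, 27 rose and 0 fell. All 40 listed collagens together summed to 687 and 657 TPM in WT H1 and 23391 and 14684 TPM in EED-/- H1. COL3A1 (chr2:188974373-189012746, plus strand), a fibrillar collagen of soft tissue, had 0.11 and 0.22 TPM in WT H1 and 2070.1 and 1873 TPM in EED-/- H1, the largest log2 rise of all genes called, 10.73 ± 0.36 (limma, adjusted p = 1.25e-08). COL1A1 rose from 38.5 and 28.6 TPM to 4901 and 1813 TPM, and the first EED-/- H1 sample held more. The basement membrane chains COL4A1 and COL4A2 reached 2946 and 2104 TPM and 3032 and 1855 TPM. Laminin LAMB1 rose from 32.1 and 33.7 TPM to 936 and 996 TPM and LAMA1 from 27.9 and 24.1 TPM to 332 and 347 TPM, while LAMC3 fell. Of the proteoglycans that bind collagen fibrils, LUM had 0.22 and 0.69 TPM in WT H1 and 739.6 and 646 TPM in EED-/- H1, with the samples of each group close together.

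Proteases, their inhibitors and the matrix receptors rose as well. The collagenase MMP1 was listed at 0 in both WT H1 samples and had 1122 and 395 TPM in EED-/- H1, and 12 of 16 matrix metalloproteinases tested rose. MMP25 fell by 2.97 and MMP17 fell by 2.43 on the log2 scale, and both are anchored to the membrane. The inhibitors TIMP1, TIMP2 and TIMP3 rose, TIMP3 from 2.76 and 3.07 TPM to 653 and 202 TPM. CST1, a secreted inhibitor of cysteine proteases, had 1.35 and 2.60 TPM in WT H1 and 2171 and 7977 TPM in EED-/- H1, the second largest log2 rise. Reads of CST1, CST2 and CST4 come from near-identical paralogs, so their split between these genes is uncertain. Among integrins 14 of 23 tested rose, with the collagen receptor subunit ITGA11 at 0.05 and 0.29 TPM in WT H1 and 656 and 298 TPM in EED-/- H1. Of contractile genes, ACTA2, smooth muscle actin, rose from 1.90 and 1.88 TPM to 614 and 658 TPM, while MYH11, the myosin of mature smooth muscle, had 1.32 and 1.22 TPM in WT H1 and 1.38 and 0.86 TPM in EED-/- H1 and was not called.

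In BMP signalling, ligands and antagonists rose alike. Of 24 genes tested, 18 rose and 0 fell. Among ligands, BMP4 rose from 2.50 and 3.25 TPM to 92.5 and 207 TPM, BMP2 from 1.51 and 1.79 TPM to 48.4 and 45.9 TPM and BMP6 from 1.70 and 0.82 TPM to 94.8 and 82.8 TPM. Among antagonists, GREM1 rose from 0.19 and 0.36 TPM to 215 and 146 TPM and NOG from 0.17 and 0.18 TPM to 19.1 and 31.6 TPM. Of the targets, MSX1, MSX2 and the decoy receptor BAMBI rose. The ID genes, direct targets of BMP-activated SMADs, were not called: ID1 had 132 and 102 TPM in WT H1 and 133 and 186 TPM in EED-/- H1, ID3 had 154 and 114 TPM in WT H1 and 136 and 137 TPM in EED-/- H1, and ID2 and ID4 were not called either.

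In the NODAL and TGF-beta pathway 14 of 24 tested rose and 2 fell. TGFB2 rose from 0.53 and 0.48 TPM to 113 and 124 TPM, the activin subunit INHBA from 0.28 and 0.84 TPM to 199.8 and 71.0 TPM and its antagonist FST from 4.74 and 7.99 TPM to 477 and 324 TPM. The receptor TGFBR2 rose from 6.20 and 5.64 TPM to 114 and 48.3 TPM, and SMAD3 from 8.44 and 8.65 TPM to 49.9 and 43.9 TPM. For WNT, 25 of 40 tested rose and 2 fell. The ligand WNT5A had 1.06 and 0.80 TPM in WT H1 and 171 and 69.5 TPM in EED-/- H1, and DKK1, a secreted antagonist, 0 and 0.67 TPM in WT H1 and 168 and 254 TPM in EED-/- H1. LEF1, a nuclear effector and target, rose from 0.26 and 0.44 TPM to 70.7 and 46.7 TPM, whereas AXIN2, a general target of the pathway, had 8.94 and 12.7 TPM in WT H1 and 16.99 and 21.8 TPM in EED-/- H1 and was not called.

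FGF genes were called at shares near those of all genes, 4 up and 2 down of 25, or 2 up and 3 down after median-ratio scaling, and their median of 0.15 on the log2 scale turned to -0.05 under that scaling. FGF19 fell from 11.4 and 10.2 TPM to 0.23 and 0.33 TPM, the feedback inhibitor SPRY2 rose from 52.5 and 32.5 TPM to 225 and 139 TPM, and the receptor FGFR1 had 223 and 214 TPM in WT H1 and 132 and 193 TPM in EED-/- H1 and was not called. For Notch, 11 of 19 tested rose, or 8 with 1 fall after median-ratio scaling. DLL4, the endothelial ligand, had 0.13 and 0.10 TPM in WT H1 and 19.4 and 16.3 TPM in EED-/- H1, JAG1 rose from 12.1 and 10.9 TPM to 114 and 131 TPM and the target HEY1 from 1.63 and 1.24 TPM to 30.6 and 23.5 TPM. Of 11 hedgehog genes tested, 4 rose and 1 fell. The ligands SHH and IHH rose to 9.45 and 26.4 TPM and 14.4 and 24.2 TPM from at most 0.05 TPM. Their receptor and target PTCH1 had 4.94 and 7.29 TPM in WT H1 and 5.86 and 8.50 TPM in EED-/- H1 and was not called. GLI1, HHIP and GAS1 were called, but not all in the same direction. Enzymes that make retinoic acid rose, ALDH1A1 from 1.14 and 1.43 TPM to 55.2 and 125 TPM and ALDH1A3 from 4.39 and 4.06 TPM to 122.9 and 135 TPM, and the binding protein CRABP1 fell from 348 and 276 TPM to 5.23 and 2.61 TPM. The growth factor IGF2 had 0.38 and 0.27 TPM in WT H1 and 368 and 539.8 TPM in EED-/- H1, and IGFBP7, IGFBP5 and IGFBP3, which bind insulin-like growth factors, rose by 8.97, 8.72 and 5.97 on the log2 scale.

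Cell division genes fell almost without exception, and several inhibitors of the cell cycle rose. In the list of CDK inhibitors and G1 cyclins, 8 of 19 tested rose (42.1%, beside 18.4% of all genes tested), 2 fell and 9 were not called. No gene of the DNA replication and mitosis lists rose. Of 31 replication genes 27 fell, with a median of -2.53 on the log2 scale, and of 30 mitosis genes 28 fell, with a median of -3.26. After median-ratio scaling 30 fell in either list. Of the helicase that opens replication origins, MCM3 fell from 359 and 370.2 TPM to 29.2 and 40.0 TPM and MCM5 from 231 and 227 TPM to 21.7 and 15.7 TPM. The primase PRIM1 fell from 64.3 and 59.6 TPM to 2.46 and 2.98 TPM. PCNA, the polymerase clamp, had 415 and 440.1 TPM in WT H1 and 149.7 and 138 TPM in EED-/- H1 and missed the fold threshold at -1.57 on the log2 scale, and TYMS had 98.5 and 102 TPM in WT H1 and 67.99 and 87.3 TPM in EED-/- H1.

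The promoters of 3 mitosis genes that fell are shown, because the letters of their proximal sequence recur across the list. PLK1, a mitotic kinase, had 124 and 127 TPM in WT H1 and 6.83 and 11.2 TPM in EED-/- H1, a difference of -3.70 ± 0.34 on the log2 scale. CDC20, which activates the anaphase-promoting complex, had 226 and 218 TPM in WT H1 and 13.01 and 22.6 TPM in EED-/- H1, and cyclin B2 (CCNB2) had 115 and 118 TPM in WT H1 and 6.22 and 14 TPM in EED-/- H1. In all 3 the second EED-/- H1 sample was the higher of its group and far below WT H1. The 250 bases before the start of each gene are given 5′ to 3′ from RefSeq on GRCh38.p14 (PLK1 chr16:23678639-23678888, CDC20 chr1:43358731-43358980, CCNB2 chr15:59104896-59105145, all on the plus strand). Capitals mark CCAAT, a box of many promoters, and TTTGAA, the core of the CHR element known from cell cycle genes, each searched on both strands, so that ATTGG and TTCAAA are the same motifs on the minus strand.
PLK1: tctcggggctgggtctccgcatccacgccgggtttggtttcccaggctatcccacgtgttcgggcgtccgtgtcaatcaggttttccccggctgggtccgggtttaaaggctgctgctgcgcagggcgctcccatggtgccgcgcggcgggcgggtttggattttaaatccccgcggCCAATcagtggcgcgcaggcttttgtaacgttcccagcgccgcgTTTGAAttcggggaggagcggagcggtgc
CDC20: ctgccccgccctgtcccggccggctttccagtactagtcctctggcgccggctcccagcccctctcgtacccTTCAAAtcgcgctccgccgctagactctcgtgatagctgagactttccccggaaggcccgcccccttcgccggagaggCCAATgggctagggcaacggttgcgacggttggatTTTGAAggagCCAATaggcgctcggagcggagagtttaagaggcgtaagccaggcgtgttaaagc
CCNB2: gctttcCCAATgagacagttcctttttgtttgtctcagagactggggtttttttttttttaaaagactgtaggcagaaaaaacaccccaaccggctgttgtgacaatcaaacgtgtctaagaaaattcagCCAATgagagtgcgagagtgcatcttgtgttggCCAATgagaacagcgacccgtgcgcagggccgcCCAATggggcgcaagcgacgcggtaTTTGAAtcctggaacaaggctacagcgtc
In windows of 300 bases, from 250 before to 50 after the start, CCAAT was found in 21 of 26 mitosis genes with an entry (80.8%), in 17 of 28 replication genes (60.7%) and in 35.7% of all 27305 promoters of the table. TTTGAA was found in 19 of 26 mitosis genes (73.1%), 1 of 28 replication genes (3.57%) and 15.4% of all promoters. GCGGGAA, a core of E2F sites, was found in 2 of 26 mitosis genes (7.69%), 14 of 28 replication genes and 6.56% of all promoters. TATAAA, the TATA box, was found in 2 of 26 mitosis genes (7.69%), 1 of 28 replication genes (3.57%) and 12.0% of all promoters. The other 3 motifs were chosen after the values had been seen, none contains another, and a match is no evidence of a bound factor.

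Upstream of these lists, E2F1 fell from 31.6 and 32.0 TPM to 1.66 and 2.83 TPM and cyclin E (CCNE1) from 68.3 and 58.2 TPM to 13.2 and 16.3 TPM. The inhibitors of the INK4 locus, which PRC2 is known to silence, switched on. CDKN2A (chr9:21967752-21995301, minus strand), which codes for p16 and ARF, had 0.44 and 0.77 TPM in WT H1 and 563 and 445 TPM in EED-/- H1, and its neighbour CDKN2B (chr9:22002903-22009305, minus strand), which codes for p15, had 0.13 and 0.10 TPM in WT H1 and 562 and 428 TPM in EED-/- H1. Their differences were 8.30 ± 0.54 and 8.78 ± 0.24 on the log2 scale (limma, adjusted p = 6.82e-07 and 3.64e-09). CDKN1A, which codes for p21, rose from 6.15 and 21.4 TPM to 1246 and 606 TPM, and its WT H1 samples differed more than 3-fold. D-type cyclins rose at the same time, CCND1 from 45.2 and 24.9 TPM to 448 and 436 TPM and their kinase CDK6 from 2.97 and 3.35 TPM to 40.3 and 57.4 TPM.

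Targets of p53 rose with CDKN1A. Of 20 tested, 15 rose and 0 fell, or 13 after median-ratio scaling, and all 20 differences were positive. GDF15, a stress-induced cytokine, had 2.89 and 6.35 TPM in WT H1 and 595 and 422 TPM in EED-/- H1, the death receptor FAS 1.06 and 2.33 TPM in WT H1 and 155 and 129 TPM in EED-/- H1, and MDM2, which degrades p53, 24.4 and 43.6 TPM in WT H1 and 414 and 371 TPM in EED-/- H1. The first EED-/- H1 sample was the higher in all 20, and for BAX and AEN, which did not pass, the differences were 1.04 and 0.46 on the log2 scale.

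Genes of growth and protein synthesis took a smaller share of transcripts. The 82 ribosomal protein genes listed summed to 217832 and 209608 TPM in WT H1 and 90806 and 115130.1 TPM in EED-/- H1. Of the 79 tested, 77 had a negative difference, with a median over the 79 of -1.08 on the log2 scale. Only 5 fell far enough to be called, or 23 after median-ratio scaling, and 1 rose. The hESC paralog RPL39L fell from 522 and 543 TPM to 16.4 and 16.7 TPM and RPS27L, a p53 target, rose from 98.8 and 122 TPM to 519 and 546 TPM. Other abundant genes of growing cells fell too: HMGA1, a chromatin protein, from 2872 and 2806 TPM to 126 and 203 TPM, PTMA from 5573 and 5394 TPM to 693 and 664 TPM and the nucleolar NPM1 from 4411 and 4672 TPM to 982 and 1325 TPM. Of 14 housekeeping genes tested 1 rose and 1 fell, with a median of -0.34 on the log2 scale. Since TPM has a fixed sum, a gain by some genes lowers the share of others, and changes of RNA per cell cannot be read from it.

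Among metabolic lists, glycolysis and serine and one-carbon metabolism had the largest shares of falls, beside 6.92% of all genes tested. Of 24 glycolysis genes tested 6 fell, or 8 after median-ratio scaling, and 1 rose. LDHA, which makes lactate, fell from 589.8 and 612 TPM to 146 and 142 TPM and ALDOC from 89.7 and 79.9 TPM to 7.82 and 7.72 TPM, whereas the lactate exporter SLC16A3 rose from 3.11 and 2.16 TPM to 149.9 and 90.03 TPM. In serine and one-carbon metabolism 4 of 13 tested fell (30.8%) and 1 rose, and PHGDH fell by 1.97 and MTHFD1 fell by 2.70 on the log2 scale. Of 24 cholesterol genes 2 fell (8.3%), near the share of all genes, and 1 rose, below the share of all genes that rose. Their median was -0.76 on the log2 scale, and 19 of the 24 differences were negative. Among interferon-stimulated genes 3 of 20 rose and 2 fell, shares near those of all genes tested. In MHC class I presentation 4 of 15 tested rose (26.7%), HLA-B and HLA-E among them, 1 fell (6.7%) and the rest were not called. The median of this list was 0.215 on the log2 scale, below the 0.39 over all genes tested, with the reservation that reads of HLA genes are shared.

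Of 8 enzymes of DNA methylation and demethylation tested, 4 fell and 1 rose. DNMT3B, the de novo methyltransferase of hESCs, fell from 846 and 840.4 TPM to 30.9 and 19.6 TPM, a difference of -5.04 ± 0.45 on the log2 scale, while DNMT3A had 79.3 and 71.5 TPM in WT H1 and 66.7 and 52.8 TPM in EED-/- H1 and was not called. UHRF1, which directs maintenance methylation, fell from 41.1 and 43.9 TPM to 7.54 and 6.19 TPM. The demethylating oxidase TET1 fell from 18.3 and 16.9 TPM to 1.47 and 2.29 TPM and its paralog TET2 rose from 0.74 and 0.92 TPM to 11.8 and 8.19 TPM. Of 23 imprinted genes tested 8 rose and 1 fell. DLK1 rose from 0.30 and 0.96 TPM to 179.9 and 99.0 TPM and the growth inhibitor CDKN1C from 7.93 and 5.42 TPM to 59.4 and 69.5 TPM, and SNRPN fell from 1204 and 1168 TPM to 294 and 267 TPM.

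The 2 EED-/- H1 samples differed from each other more than the 2 WT H1 samples did. A difference of at least 3-fold in TPM + 1 was found for 313 genes (1.85%) between the former and for 32 genes (0.189%) between the latter. The sample designated DK2 held more of the hepatic genes, with a median log2 difference, DK1_DK10 minus DK2, of -1.33, of the cystatins (-1.38), of simple epithelium (-0.80) and of mitosis genes (-0.82). The sample designated DK1_DK10 held more of the endothelial genes, with a median of 0.52, of the collagens (0.49) and of the HOX genes (0.57). Over all genes tested the median was 0.11. TTR was 535 and 1694 TPM in DK1_DK10 and DK2, MMP1 was 1122 and 395 TPM and KRT8 2703 and 5680.2 TPM, and for all of these both samples lay far from WT H1.

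Single genes were high in one EED-/- H1 sample and low in the other. H19, an imprinted noncoding RNA next to IGF2, had 488 and 0.27 TPM in DK1_DK10 and DK2 and 3.33 and 5.01 TPM in WT H1, and it was not called (limma, adjusted p = 0.36). Without the first EED-/- H1 sample its difference was -2.01 on the log2 scale and without the second 6.58, values that each rest on 1 EED-/- H1 sample and are given with no test. IGF2, its neighbour, was high in both, at 368 and 539.8 TPM. CES1, a carboxylesterase, had 89.3 and 0.54 TPM, DIRAS3, an imprinted GTPase, 44.2 and 0.50 TPM, and KLF8 0.06 and 21.5 TPM, in DK1_DK10 and DK2. MAGEH1 had 0 and 65.8 TPM and MT1G 0 and 20.6 TPM, and of the metallothioneins the latter shares reads with close paralogs. CTHRC1, a secreted protein of matrix, had 5.65 and 127 TPM, and the noncoding RP11-455F5.3 had 1.86 and 54.5 TPM. EIF3CL had 79.1 and 0 TPM, and its reads cannot be split with certainty from those of its near-identical paralog. These genes are 9 of the 10 with the largest differences between the samples, the other is not described here, and each designation has 1 sample, so no test was possible.

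**Figure D5:**
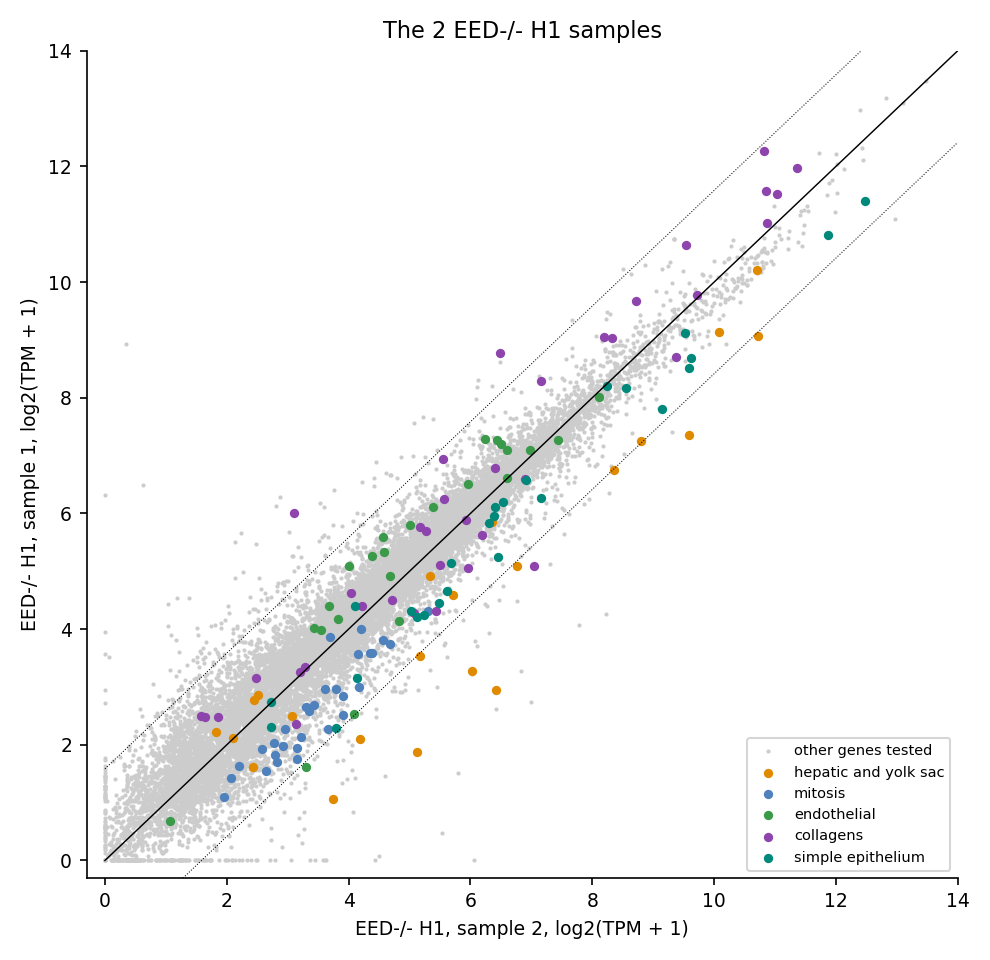
Level of each tested gene in the EED-/- H1 samples designated DK1_DK10 (sample 1, vertical axis) and DK2 (sample 2, horizontal axis), as log2(TPM + 1), with 1 point per gene, 5 lists coloured and dotted lines at a 3-fold difference in TPM + 1. Most genes lie between the lines, 313 lie outside them, and H19 (488 and 0.27 TPM) stands farthest out.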

How the data were processed

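RNA was sequenced from TruSeq libraries. The authors aligned the reads with Bowtie2 and estimated expression with RSEM on a GRCh38 mRNA reference, and deposited 1 table of TPM values (transcript shares scaled to a fixed sum) per sample. The labels' processing notes name Bowtie, RSEM, hg19 and hg38 without versions. The study tested read counts with edgeR, which needs counts and was not run on these TPM values. The members and gene lists were chosen with earlier results of these data known.

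Genes that reached 1 TPM in 2 or more of the 4 samples were tested on log2(TPM + 1), a scale that understates the change of low genes, with limma 3.58.1 in R 4.3.3 (lmFit with a mean for each of 6 lines over 12 samples, contrasts.fit, eBayes with trend and robust, 6 residual degrees of freedom). A call needed an adjusted p (Benjamini-Hochberg) no higher than 0.01 and a fold change of 3 or more. Values after ± are standard errors. Replicate numbers follow accession order. No 2 samples held identical values. Lists are described by counts and medians, with no test. The text names PRC2 subunits, list members that were called with the largest differences, defining genes that did not pass, the 15 largest log2 rises and falls, the 10 largest gains and losses in TPM, and the 10 largest differences between the EED-/- H1 samples with at least 10 TPM in 1 of them, as far as they add to a list described.

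Of 33382 gene identifiers 32481 (97.3%) were found in GENCODE 44, which gave coordinates. Promoters came from RefSeq (GRCh38.p14), matched by symbol and chromosome. The fit was tested on simulated data. Depth is unknown from TPM. Alternatives were another pseudocount, other filters, thresholds and scaling, the 4 samples alone, a replicate block and each sample left out. The 7 samples of a doxycycline-inducible line were not analysed here, and results for some genes are not reported here. Tables and plots were made with Python 3.11.15, pandas 2.3.3, numpy 2.4.6 and matplotlib 3.10.9.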

Additional observations from a re-analysis of the deposited data

How the results depend on the processing

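More genes rose than fell under every alternative tried for these counts. Against 3115 genes called up and 1171 called down, leaving out each sample in turn gave 2542 to 3185 up and 991 to 1127 down, the 4 samples alone 3070 and 1170, no filter 3015 and 1134, and a pseudocount of 0.1 3599 and 1362. Median-ratio scaling gave 2546 and 1504. Asking for 1 TPM in each of the 4 samples gave 1848 and 807, limma's treat test against the fold threshold 956 and 291, and an adjusted p of at most 0.05 with no fold cutoff 6320 and 3245. The filter on all 4 samples tests fewer genes and removes those silent in WT H1. Of 2178 single genes followed, 131, 76, 95 and 96 lost their call without the first and second EED-/- H1 and the first and second WT H1 sample, 59 after median-ratio scaling and 450 under treat. H19 alone reversed, at -2.01 on the log2 scale without EED-/- H1 replicate 1 against 2.29 as reported and 6.58 without EED-/- H1 replicate 2. Where a sample is left out, the lone sample of its group is assumed to vary like the other lines. Of 174 counts of list members called, 12 moved by over 1.5 times after median-ratio scaling and 103 under treat. Asking for 1 TPM in each of the 4 samples moved 66 such counts and left 100 the same. The genes that differed 3-fold between the EED-/- H1 samples numbered 313, or 803 at a pseudocount of 0.1.

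With the replicate number as a block, 3140 genes were called up and 1182 down, and 5 of the single genes gained and 0 lost a call. The numbers follow accession order and do not pair the samples, whose deviations correlated at 0.055.

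The depth behind each TPM is unknown, so values near 0 cannot be told from silence. With 2 samples per group, an exact test of a single gene cannot reach 0.05. Promoters of called and other genes were not compared, because only 72.8% of the genes called up, 68.8% of those called down and 74.8% of the others had an entry, under the 80% set for such a check.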
